A study of Drosophila melanogaster with 21 samples.

Results

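The nuclear genes of the mitochondrial respiratory chain were followed in S2R+ cells, an embryonic Drosophila melanogaster line of plasmatocyte-like (macrophage-like) character, after depletion of components of the machinery that writes or binds N6-methyladenosine (m6A) in mRNA. Members were all gene IDs whose FlyBase symbol starts with ND-, Sdh, UQCR, COX followed by a digit, or ATPsyn, leaving out genes of the mitochondrial genome. The rule gave 88 of 17558 gene IDs, of which 40 were assigned to complex I, 8 to complex II, 9 to complex III, 16 to complex IV and 15 to complex V. The complex was taken from the start of the symbol alone, so ND-MLRQ, for 1, is counted under complex I by name. Other evidence on where a subunit sits was not used. By their names 63 are structural subunits, 24 are paralogs of a subunit and 1 is an assembly factor, Sdhaf3.

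Poly(A) RNA was sequenced from 7 groups with 3 libraries each. In 6 groups cells were depleted of Ime4 (the methyltransferase Mettl3), of CG7818 (its partner Mettl14), of both Ime4 and CG7818 (the double depletion), of Fl2d (a further protein of the writer complex), of CG6422 (the YTH protein Ythdf) and of YT521 (the nuclear YTH protein Ythdc1), and the last group was the Control. All groups are the same line, grown in standard conditions at room temperature, and the sources used here do not name the agent used for depletion. For the double depletion the genotype field names Ime4 alone while the title names both genes, and the title was followed; Mettl3 and Mettl14 were both low there. The targeted transcripts stood at 8.66% to 25.8% of their Control level in the groups that target them. Of 11 plasmatocyte markers 9 were at 1 CPM (1 count in 1e6 of the scaled library) or more in the Control, and the list summed to 614 to 773 CPM per library. Markers of other cell types were also found, with 2 of 2 germline markers at 1 CPM or more (Control sum 224 CPM). The Control sums were 81.0 CPM for lamellocyte, 19.6 for neuron, 2.75 for crystal cell and 1.87 for muscle markers. Since no label says that the 3 libraries of a group are separate cultures, p-values reflect only the spread among these libraries, which could be technical.

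The respiratory chain sits in the inner mitochondrial membrane. Complexes I and II take electrons from NADH and succinate, complex III passes them to cytochrome c and complex IV to oxygen. Complex V, the ATP synthase, uses the proton gradient that complexes I, III and IV build. Complex II is wholly nuclear-encoded, while the other complexes join nuclear-encoded subunits with subunits translated inside the organelle. Several fly subunit genes have paralogs known for expression in the testis.

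Libraries held 20214568 to 28296393 counts assigned to genes (median 22126193), and members took 0.911% to 1.17% of them. After a filter on low counts 8360 genes were tested, among them 65 members, which were 61 subunits, Sdhaf3 and the paralogs COX4L, COX7AL and COX7CL. Of these 62 had a mean of at least 1 CPM, and the 3 paralogs did not. The other 23 members were not tested. These were 21 paralogs, 8 of them with no count in any library and the highest, ATPsynepsilonL, at a mean of 0.281 CPM. Markers of testis-type cells (can, aly, Mst84Da and dj) summed to 0 to 0.0848 CPM per library, so 0 of 4 reached 1 CPM. The other 2 were subunits of complex I. ND-B8 had 0 or 1 count per library, and ND-MNLL had 0 counts in all 21 libraries. Every exon base of ND-MNLL is shared with CG45089 on the same strand, which also had 0 counts in all of them. A count of 0 allows up to 3 counts, or 0.104 to 0.151 CPM depending on the library, and this limit covers counting error only. For ND-MNLL it sets no limit on expression, since reads over exons shared with CG45089 may have been set aside as ambiguous. Whether they were was not tested.

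Within the Control the subunits were spread over a 15.4-fold range of level per length, given as CPM per kilobase of merged exon (CPM/kb). The median was 82.7 CPM/kb for complex I, 96.2 for complex II, 134 for complex III, 173 for complex IV and 215 for complex V. ATPsyngamma, the central stalk of the ATP synthase, was highest of all members at 523, 587 and 571 CPM/kb in the 3 Control libraries. Its libraries did not overlap those of the next gene, ATPsynCF6 (363, 407 and 411 CPM/kb), whose range overlapped that of ATPsynC (386, 396 and 375 CPM/kb), the membrane ring. In complex I the acyl carrier protein ND-ACP stood at 377 ± 10.5 CPM/kb and ND-MLRQ at 376 ± 27.7 CPM/kb (SD, n = 3 each), which overlapped. The lowest of complex I were ND-18 and ND-ASHI, both at 36.3 CPM/kb. The highest of complex II was the iron-sulphur subunit SdhB (125 CPM/kb) and the lowest the membrane anchor SdhD (51.1 CPM/kb). UQCR-14 led complex III (274 CPM/kb) and COX7B led complex IV (343 CPM/kb). Of the summed level per length of the subunits in the rule, complex I held 38.4%, complex V 30.0%, complex IV 17.7%, complex III 9.95% and complex II 4.08%. These levels, ranks and shares leave out respiratory chain genes under other symbols, described further on. In the Control blw averaged 836 CPM, against 818.1 CPM for ATPsyngamma. Cyt-c1 averaged 228 CPM there, RFeSP 176, levy 114, cype 111, ox 107 and sun 83.9.

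**Figure D1:**
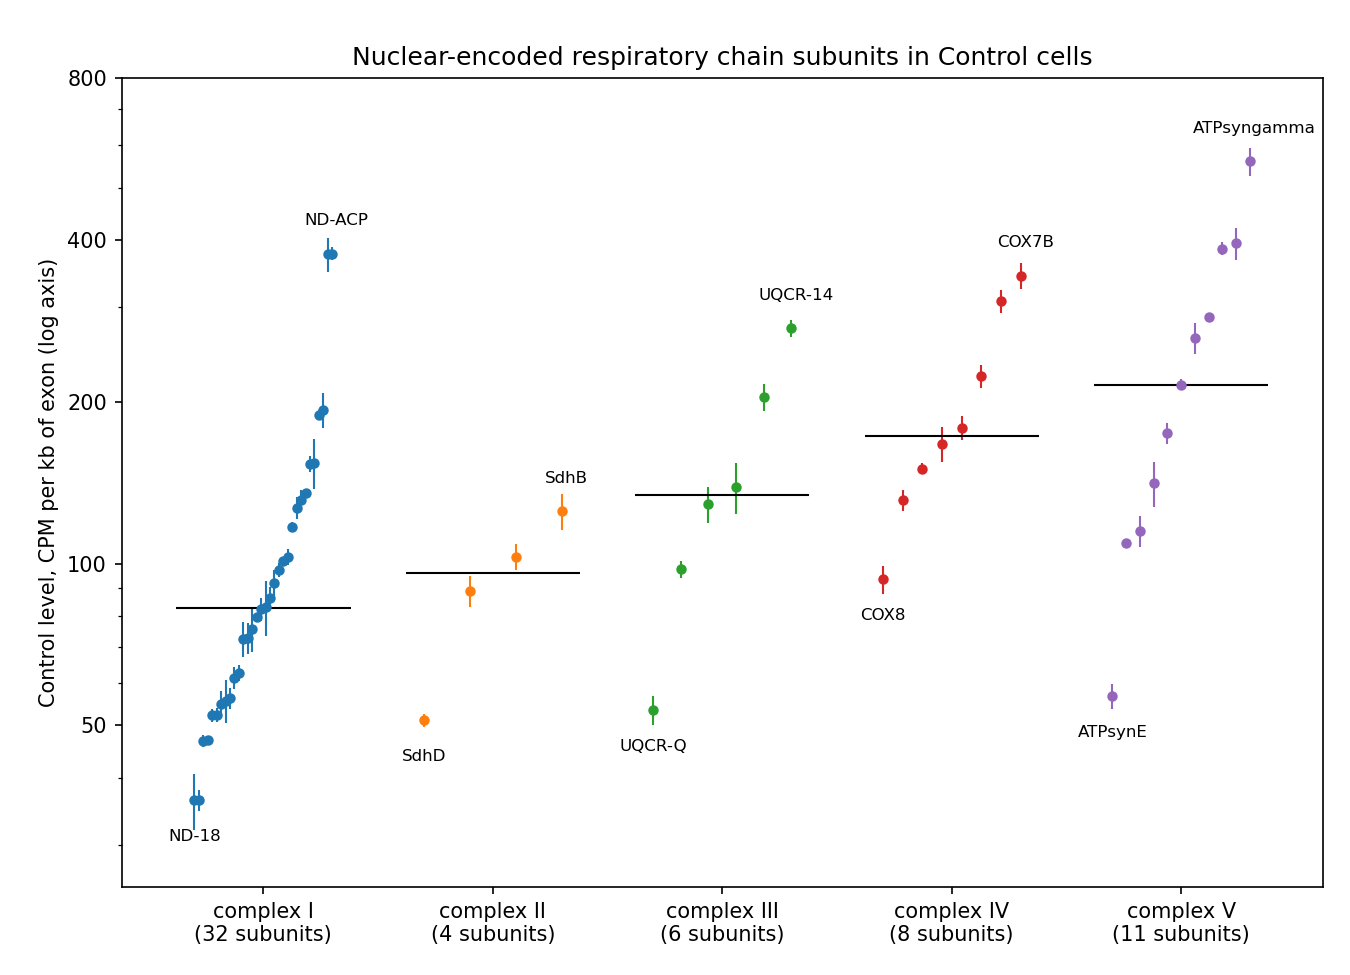
Level of each tested subunit in the Control, as CPM per kilobase of merged exon on a log axis, by complex, with points as means, vertical bars as SD over 3 libraries and horizontal lines as the median of a complex. Complex V reaches 560 CPM/kb with ATPsyngamma, and complex I runs between 36.3 and 377 CPM/kb.

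The chain as a whole moved little. The summed CPM of all members averaged 9998 ± 108 in the Ime4 depletion, 9967 ± 266 in the CG7818 depletion, 9960 ± 164 in the double depletion, 10180 ± 979 in the Fl2d depletion, 10480 ± 365 in the CG6422 depletion and 10320 ± 386 in the YT521 depletion, against 9876 ± 307 in the Control (SD, n = 3 each). In bulk RNA such as this, fewer cells of a kind and less RNA per cell cannot be told apart. For the 62 members of at least 1 CPM, the ratio of the highest to the lowest of the 7 group means had a median of 1.14 and reached 1.27 for COX6B. Over all genes tested that ratio had a median of 1.25 and reached 13.5. The members were also more abundant (median Control level 118 CPM, against 33.3 over all genes) and shorter (median exon length 862 bases, against 2024). Their median biological coefficient of variation between libraries was 6.37%, against 5.51% over all genes. For each of these 62 members, the 95% interval of the fold change lay within 1.5-fold in every one of the 6 comparisons with the Control. The interval covers 1 gene at a time.

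A pair of libraries stood apart in mitochondrial RNA. The large ribosomal RNA of the organelle, mt:lrRNA, was at 1.93% of gene counts for Fl2d replicate 1 and at 2.89% for YT521 replicate 2, against 5.61% to 8.62% for the remaining libraries. Fl2d replicate 1 also had the highest member sum of all libraries, 11302 CPM, against 9698.3 and 9528.4 CPM in the other Fl2d libraries. YT521 replicate 2 had 10756 CPM, against 10189 and 10018 CPM in its group and 10842 CPM in CG6422 replicate 2, where mt:lrRNA was at 8.15%. The 13 protein genes of the mitochondrial genome summed to 17840 CPM in Fl2d replicate 1, 19360 CPM in YT521 replicate 2 and 30130 CPM in CG7818 replicate 1, against 51210 to 76300 CPM elsewhere.

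**Figure D2:**
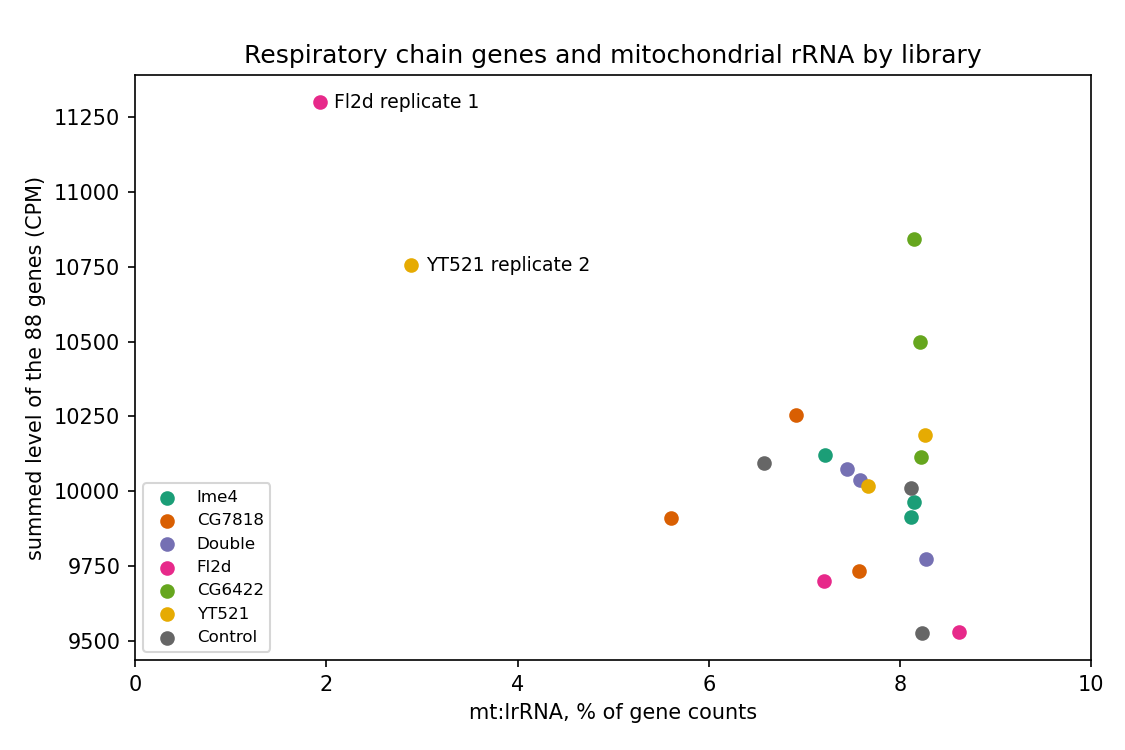
Summed CPM of the member genes (vertical axis) against the share of gene counts taken by mt:lrRNA (horizontal axis), 1 point for each of the 21 libraries, coloured by group. Fl2d replicate 1 combines the highest member sum (11302 CPM) with the lowest mt:lrRNA share (1.93%).

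A test of any difference among the 7 groups passed for 12 of 65 members, 18.5%, against 54.8% of all genes tested. In this and the following tests a gene passed where the p-value of edgeR's quasi-likelihood test, adjusted after Benjamini and Hochberg over all 8360 genes, was under 0.05. The 12 were ND-ACP, ND-13A, ND-15, ND-20, ND-23 and ND-MWFE of complex I, SdhA of complex II, UQCR-6.4 of complex III, COX6B, COX7A and COX7AL of complex IV and ATPsynbeta of complex V. SdhA, the flavoprotein of complex II, averaged 259.2 ± 23.6 CPM in the Fl2d depletion, 314.4 ± 19.1 CPM in the CG6422 depletion and 308.4 ± 16.8 CPM in the YT521 depletion, against 284.4 ± 16.1 CPM in the Control. With all libraries no comparison of SdhA with the Control passed. It passed as lower in the Fl2d depletion without Fl2d replicate 1 (log2 fold change −0.221, adjusted p = 0.00419) or Control replicate 1 (−0.179, adjusted p = 0.0367). In the CG6422 depletion it passed as higher without CG6422 replicate 1 (0.189, adjusted p = 0.0479). The smallest adjusted p of the 12 was 0.00126, for ND-15, and the largest 0.0489, for ND-20. The count was 25 without Fl2d replicate 1, 20 without Fl2d replicate 3 and 27 without both libraries low in mt:lrRNA. Of all genes 53.0%, 54.0% and 53.5% passed in these settings, so the distance between members and all genes depended on single libraries. In the 6 comparisons with the Control, which share the 3 Control libraries, 48 members passed in no comparison, 12 in 1, 4 in 2 and 1 in 3.

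**Figure D3:**
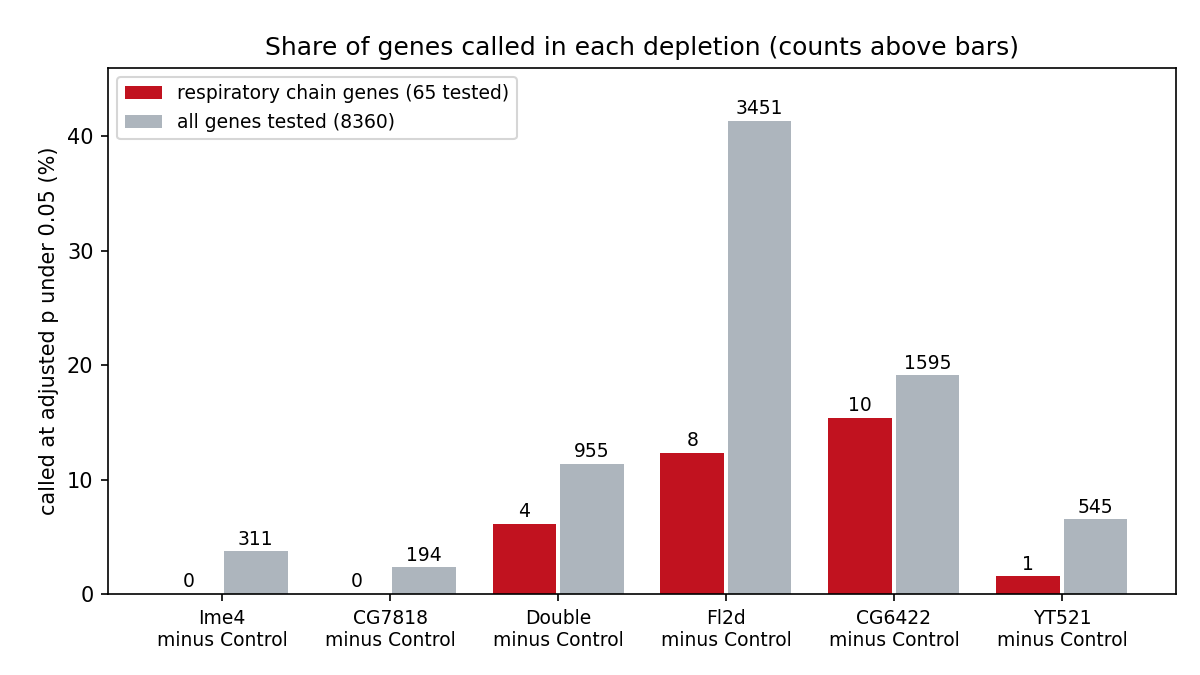
Percent of the 65 tested members and percent of all 8360 tested genes that passed the test in each comparison with the Control, with the number of genes above each bar. The members were at or under 15.4% throughout, and in the Fl2d depletion 12.3% of members passed, against 41.3% of all genes.

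Depletion of Ime4 or of CG7818 alone moved no member past the test. In the Ime4 depletion 0 of 65 members passed, against 3.72% of all genes (1.77% higher and 1.95% lower), and in the CG7818 depletion 0 of 65, against 2.32% (1.1% higher and 1.22% lower). Unadjusted p-values under 0.05 were found for 3 members in the Ime4 depletion and 4 in the CG7818 depletion. The share of all genes with such p-values was not taken, here or below, so these counts are no result about the members. DESeq2 called 1 member in the Ime4 depletion, ND-ACP (log2 fold change 0.17, adjusted p = 0.0366), and 0 in the CG7818 depletion, against 4.78% and 3.11% of all genes. ND-ACP was at 365.4, 366.5 and 340.9 CPM in the Ime4 depletion and at 358.0, 355.4 and 333.7 CPM in the CG7818 depletion, against 322.3, 307.3 and 323.0 CPM in the Control. The libraries did not overlap in either comparison, and the log2 fold changes were 0.17 (SE 0.052, adjusted p = 0.0697) and 0.14 (SE 0.052, adjusted p = 0.198). Apart from the paralogs, the other complexes had smallest p-values at Sdhaf3, which assists complex II assembly (0.21 in the Ime4 and 0.15 in the CG7818 depletion, adjusted p = 0.406 and 0.613). In complex III it was UQCR-6.4 in the Ime4 depletion (0.11, adjusted p = 0.422), and in complex V ATPsynbeta in the Ime4 depletion (−0.075, adjusted p = 0.388) and ATPsynE in the CG7818 depletion (0.15, adjusted p = 0.227). The median log2 fold change of the 65 members was 0.021 and 0.019 in these depletions, beside 0.002 and 0.003 over all genes. The libraries of the Ime4 depletion lay wholly above those of the Control for 4 members and wholly below for 3, against 14.3% and 13.2% of all genes. In the CG7818 depletion this was so for 6 and 0 members, against 12.7% and 10.1% of all genes.

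In the double depletion 4 members were higher and 0 lower, 6.15% of members, against 11.4% of all genes (6.29% higher and 5.13% lower). Those that rose were ND-ACP, ND-15 and ND-13A of complex I and the paralog COX7AL, which is described further on. With an unadjusted p under 0.05 there were 5 members higher and 1 lower, and DESeq2 called 0 lower. ND-ACP (FBgn0011361, chromosome 3L, 1329949 to 1331631, plus strand, build BDGP6.54), the mitochondrial acyl carrier protein that is also a complex I subunit, had 385.1, 380.3 and 361.7 CPM in the double depletion, against 322.3, 307.3 and 323.0 CPM in the Control. All 3 libraries of the double depletion lay above all 3 of the Control, and the log2 fold change was 0.24 (SE 0.052, adjusted p = 0.00375, at most 0.0333 over 13 alternatives). ND-15, the fly counterpart of mammalian NDUFS5, had 176.0, 163.1 and 179.6 CPM in the double depletion, against 155.3, 150.3 and 155.7 CPM in the Control (0.17, SE 0.048, adjusted p = 0.0248). Its libraries did not overlap either, but it lost the call without Double replicate 1 (adjusted p = 0.11), Double replicate 3 (0.114), Control replicate 1 (0.0528) or Control replicate 2 (0.117). ND-13A, the counterpart of NDUFS6, averaged 60.1 ± 2.2 CPM, against 53.6 ± 2.5 CPM in the Control (0.17, SE 0.053, adjusted p = 0.0458). It lost the call without Double replicate 1 (0.126), Double replicate 2 (0.18), Control replicate 1 (0.153) or Control replicate 3 (0.135). Without the filter on low counts ND-15 (0.065) and ND-13A (0.142) lost the call, as they did with a correction for gene length (0.0606 and 0.126). The count of 4 fell to 2 without Double replicate 1, Control replicate 1 or Control replicate 2, against 6.38%, 8.35% and 5.51% of all genes. No member of complexes II, III or V passed, and the median log2 fold change was 0.022 over members and −0.004 over all genes. Groups did not overlap for 11 members that were higher and 2 that were lower, against 17.7% and 17.1% of all genes.

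Fl2d depletion, which changed more genes than any other depletion in these cells, moved members in both directions. Of 65 members 5 rose and 3 fell, 12.3%, against 41.3% of all genes (21.4% higher and 19.9% lower). The 3 that fell were ATPsynbeta, COX6B and COX7A, and each call held under all 13 alternatives. ATPsynbeta (FBgn0010217, chromosome 4, 1031484 to 1034917, plus strand), the catalytic subunit of the ATP synthase, had 601.4, 594.4 and 620.7 CPM in the Fl2d depletion, against 699.1, 681.0 and 681.2 CPM in the Control. Every Fl2d library lay below every Control library, and the log2 fold change was −0.18 (SE 0.043, adjusted p = 0.00204, at most 0.0347 over its alternatives). Its partner in the catalytic head, ATPsynalpha, goes under the symbol blw and is counted with the other respiratory genes further on.

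Both other genes that fell belong to complex IV, cytochrome c oxidase. COX6B (FBgn0031066, chromosome X, 19740537 to 19744335, minus strand), a small subunit on the intermembrane side, had 116.9, 100.4 and 112.7 CPM in the Fl2d depletion, against 120.6, 138.7 and 135.4 CPM in the Control (−0.26 on the log2 scale, SE 0.058, adjusted p = 0.00125, at most 0.029). COX7A (FBgn0040529, chromosome 3R, 8339944 to 8341043, minus strand), a single-span membrane subunit, had 94.64, 87.35 and 88.71 CPM, against 101.9, 106.4 and 105.8 CPM (fell by 0.215 on the log2 scale, SE 0.060, adjusted p = 0.00701, at most 0.0283). In neither gene did the groups overlap. The exons of COX6B share 9.38% of their bases with CG18809 on the same strand.

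The 5 members that rose in the Fl2d depletion were COX7AL, described further on, ND-51, ND-B14.5B and ND-42 of complex I and ATPsynG of complex V. The last 4 are subunits. In each of these subunits, Fl2d replicate 1 was the highest of all 21 libraries. ND-51, the flavin-binding subunit that receives electrons from NADH, had 203.0, 184.9 and 173.3 CPM in the Fl2d depletion, against 157.9, 166.0 and 168.7 CPM in the Control (0.19, SE 0.053, adjusted p = 0.00732). ATPsynG, a membrane subunit, had 122.4, 99.36 and 90.77 CPM, against 85.16, 84.85 and 87.71 CPM (0.28, SE 0.081, adjusted p = 0.00878). Groups did not overlap in either gene, though the Fl2d libraries spanned a wider range than those of the Control. ND-B14.5B averaged 110.4 ± 10.6 CPM, against 96.6 ± 4.6 CPM (0.19, adjusted p = 0.0157), and ND-42 155.0 ± 13.1 CPM, against 139.7 ± 7.0 CPM (0.15, adjusted p = 0.0462). Without Fl2d replicate 1, the library low in mt:lrRNA, all 4 lost the call, with adjusted p of 0.0837 for ND-51, 0.122 for ATPsynG, 0.179 for ND-B14.5B and 0.362 for ND-42. All 4 also lost it with the compared groups alone in the fit (0.0773, 0.0711, 0.108 and 0.176). ND-B14.5B also lost it without Control replicate 1 (0.0562) or 3 (0.0658). ND-42 lost it without Fl2d replicate 3 (0.0551) and without Control replicate 1 (0.202), 2 (0.0519) or 3 (0.0543).

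The direction of the whole set in the Fl2d depletion depended on that library. The median log2 fold change over members was 0.047, with 46 of 65 above 0, beside 0.015 over all genes, and without Fl2d replicate 1 it was −0.058, with 20 of 65 above 0. The calls were then 1 higher and 8 lower, against 33.4% of all genes. The 8 were ATPsynbeta, COX6B, COX7A, ND-SGDH, ND-B14.5A and ND-24, with SdhB (−0.307, adjusted p = 0.00728) and SdhA (−0.221, adjusted p = 0.00419) of complex II. With all libraries, groups did not overlap for 6 members that were higher and 4 that were lower, against 24% and 21.8% of all genes. Without Fl2d replicate 3 the count was 20, against 41.3% of all genes. By complex the medians were 0.042 for complex I, −0.033 for II, 0.025 for III, 0.083 for IV and 0.085 for V. The part of the low mt:lrRNA in these values was not tested.

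**Figure D4:**
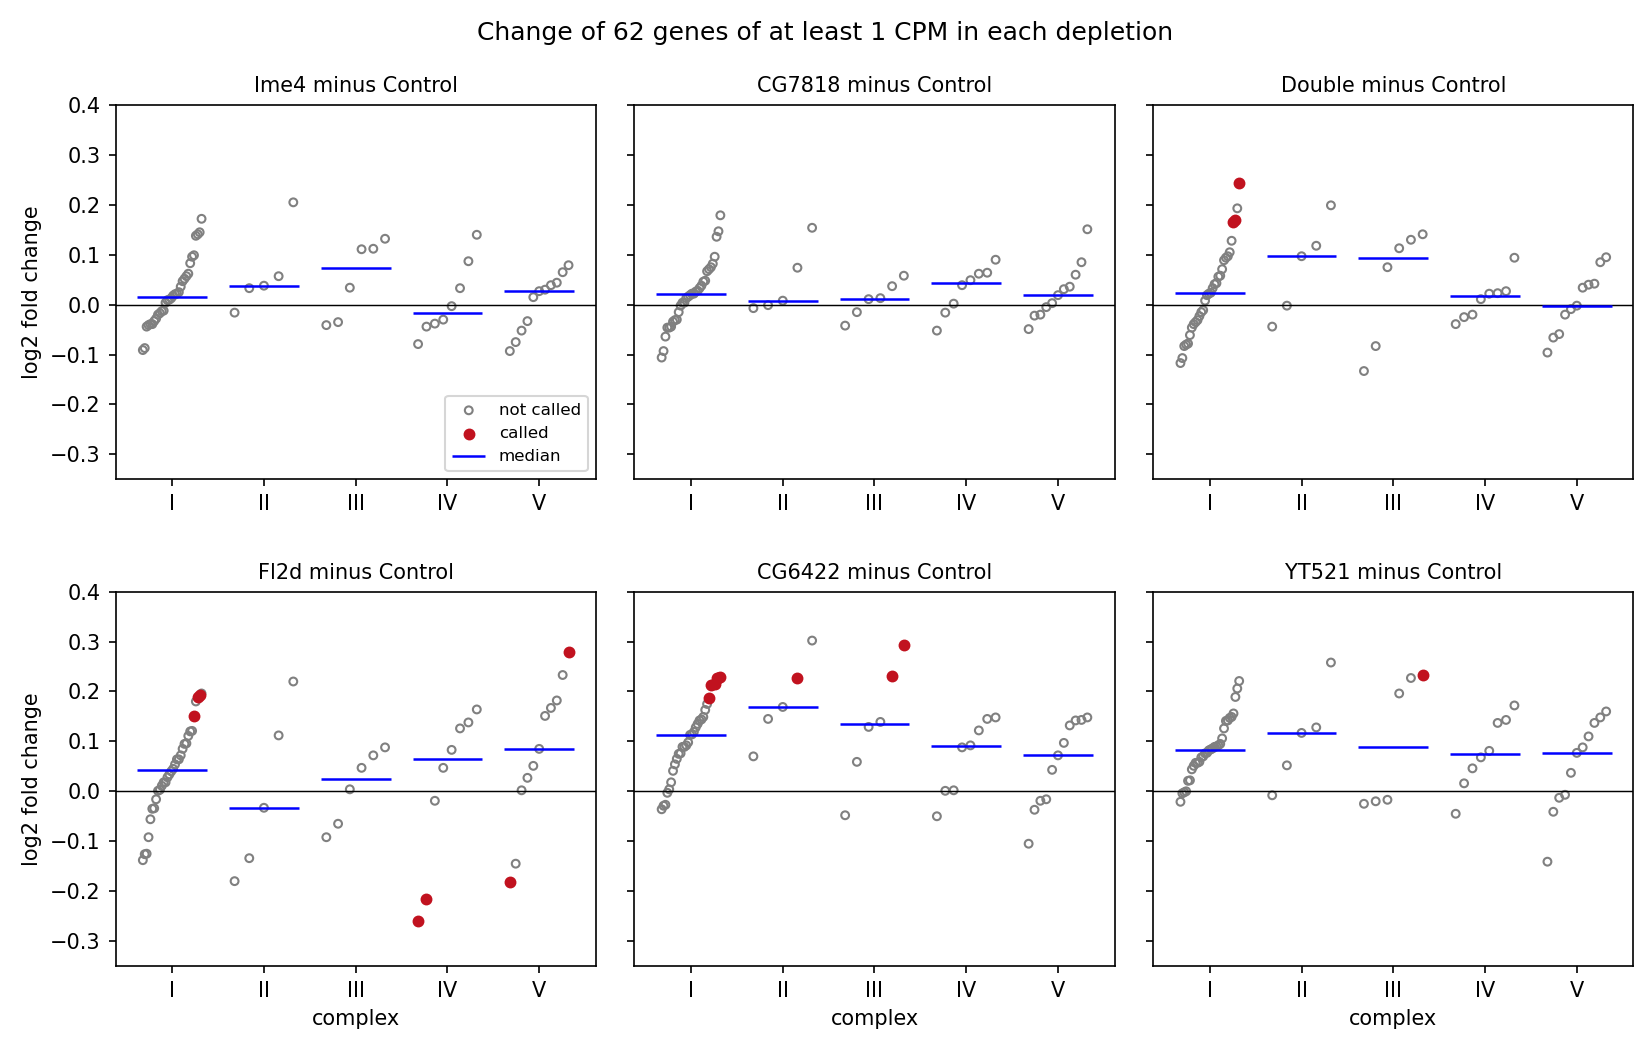
Log2 fold change against the Control of the tested members of at least 1 CPM, by complex and comparison, with filled red points for genes that passed the test, open grey points for the others and a bar at the median of the plotted genes. All values lie between −0.259 (COX6B, Fl2d depletion) and 0.302 (Sdhaf3, CG6422 depletion), and the CG6422 depletion has most of its points above 0.

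In the CG6422 depletion every member called was higher than in the Control. Of 65 members 10 rose and 0 fell, 15.4%, against 19.1% of all genes, of which 8.88% rose and 10.2% fell. With an unadjusted p under 0.05 there were 19 members higher and 0 lower, and DESeq2 called 0 lower. Complex I gave 6 of the 10 (ND-ACP, ND-13A, ND-15, ND-20, ND-23 and ND-MLRQ), complex III gave UQCR-14 and UQCR-6.4, complex II gave SdhD and complex IV the paralog COX7AL. None of 11 members of complex V passed in this comparison, where 1 had an unadjusted p under 0.05. The median log2 fold change over members was 0.113, with 54 of 65 above 0, beside 0.010 over all genes, of which 52.2% were above 0. Groups did not overlap for 21 members that were higher and 0 that were lower, against 18.7% and 18.5% of all genes. By complex the medians were 0.114 for complex I, 0.169 for II, 0.134 for III, 0.088 for IV and 0.072 for V.

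ND-ACP and ND-15 rose in the CG6422 depletion under all 13 alternatives. ND-ACP had 355.8, 394.6 and 366.3 CPM in the CG6422 depletion, against 322.3, 307.3 and 323.0 CPM in the Control (0.23 on the log2 scale, SE 0.052, adjusted p = 0.00459, at most 0.0373). ND-15 had 177.0, 189.0 and 173.6 CPM, against 155.3, 150.3 and 155.7 CPM (0.23, SE 0.048, adjusted p = 0.00299, at most 0.0348). ND-13A had 59.65, 62.19 and 64.46 CPM, against 51.88, 56.37 and 52.41 CPM (0.21, SE 0.053, adjusted p = 0.00789). The CG6422 libraries lay above all Control libraries in these 3 genes, and ND-13A lost its call under the gene length correction alone (adjusted p = 0.106).

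The remaining 6 subunits were called with adjusted p between 0.0196 and 0.0446. ND-20, a core subunit that binds the last iron-sulphur cluster before ubiquinone, had 154.6, 160.4 and 155.8 CPM in the CG6422 depletion, against 137.7, 133.2 and 134.8 CPM in the Control (0.215, adjusted p = 0.0196). ND-23, a core iron-sulphur subunit, averaged 109.3 ± 6.2 CPM, against 96.1 ± 2.1 CPM (0.19, adjusted p = 0.0269). UQCR-14, a small complex III subunit, averaged 175.4 ± 3.8 CPM, against 143.2 ± 5.4 CPM (0.29, adjusted p = 0.0208). UQCR-6.4 averaged 64.1 ± 0.77 CPM, against 54.7 ± 2.0 CPM (0.23, adjusted p = 0.0206). SdhD averaged 53.3 ± 5.2 CPM, against 45.6 ± 1.3 CPM (0.23, adjusted p = 0.0446), and ND-MLRQ 236.8 ± 16.2 CPM, against 202.1 ± 14.9 CPM (0.23, adjusted p = 0.0389). In all 6 the libraries of the CG6422 depletion lay above those of the Control.

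Each of these 6 calls depended on single libraries. ND-20 lost it without CG6422 replicate 2 (adjusted p = 0.0775), Control replicate 2 (0.0729) or Control replicate 3 (0.0533), and ND-23 without CG6422 replicate 2 (0.159), Control replicate 1 (0.0917) or Control replicate 2 (0.0679). UQCR-14 lost it without CG6422 replicate 1 (0.0571) or 2 (0.0555) or Control replicate 2 (0.0759) or 3 (0.0655). UQCR-6.4 lost it without CG6422 replicate 1 (0.0507) or 2 (0.0638) or Control replicate 2 (0.0974). SdhD lost it without CG6422 replicate 2 (0.27) or 3 (0.0734) or any Control library (0.124, 0.109 and 0.0671 without replicate 1, 2 and 3). ND-MLRQ lost it without CG6422 replicate 1 (0.15) or 3 (0.0814) or Control replicate 2 (0.139) or 3 (0.137). The count of 10 was 5 without CG6422 replicate 2, 4 without Control replicate 2 and 6 without Control replicate 3. Of all genes 10.3%, 10.6% and 14.1% passed in these settings. Without both libraries low in mt:lrRNA the count was above 10, as given at the end, and 24.5% of all genes passed. With a correction for gene length, which uses the loess trend of each library over exon length, the count was 3, against 14.1% of all genes. The median over members was then 0.014, with 37 of 65 above 0. By complex the corrected medians were 0.026 for complex I, 0.13 for II, 0.095 for III, −0.048 for IV and −0.008 for V. All 6 of these subunits lost their call under the correction.

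In the YT521 depletion 1 member rose and 0 fell, 1.54%, against 6.52% of all genes (3.27% higher and 3.25% lower). With an unadjusted p under 0.05 there were 12 members higher and 0 lower, and DESeq2 called 2 members, both higher, against 7.61% of all genes. The member that rose was UQCR-6.4, the counterpart of mammalian UQCR11, at 68.62, 65.94 and 58.19 CPM in the YT521 depletion, against 55.15, 52.48 and 56.41 CPM in the Control (0.23 on the log2 scale, SE 0.067, adjusted p = 0.0405). Its libraries did not overlap. The call did not hold without YT521 replicate 1 (0.191) or 2 (0.124), or without Control replicate 1 (0.0809), 2 (0.175) or 3 (0.0676). The count was 0 without each of these, against 2.97% to 4.53% of all genes. UQCR-6.4 also lost the call with the compared groups alone in the fit (0.0598), without both libraries low in mt:lrRNA (0.0671) and with the gene length correction (0.17). Of subunits that did not pass, ND-MWFE stood at 58.09, 64.23 and 56.62 CPM, against 54.27, 49.52 and 51.47 CPM (0.21, adjusted p = 0.0741), and ND-20 at 151.9, 161.0 and 149.6 CPM, against 137.7, 133.2 and 134.8 CPM (0.19, adjusted p = 0.0732). The median over members was 0.082, with 53 of 65 above 0, beside 0.005 over all genes. Groups did not overlap for 10 members that were higher and 0 that were lower, against 13.3% and 13.7% of all genes. It was 0.041 without both libraries low in mt:lrRNA, one of which is YT521 replicate 2, and 0.017 with the gene length correction. By complex the medians ran between 0.077 for complex V and 0.117 for complex II.

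**Figure D5:**
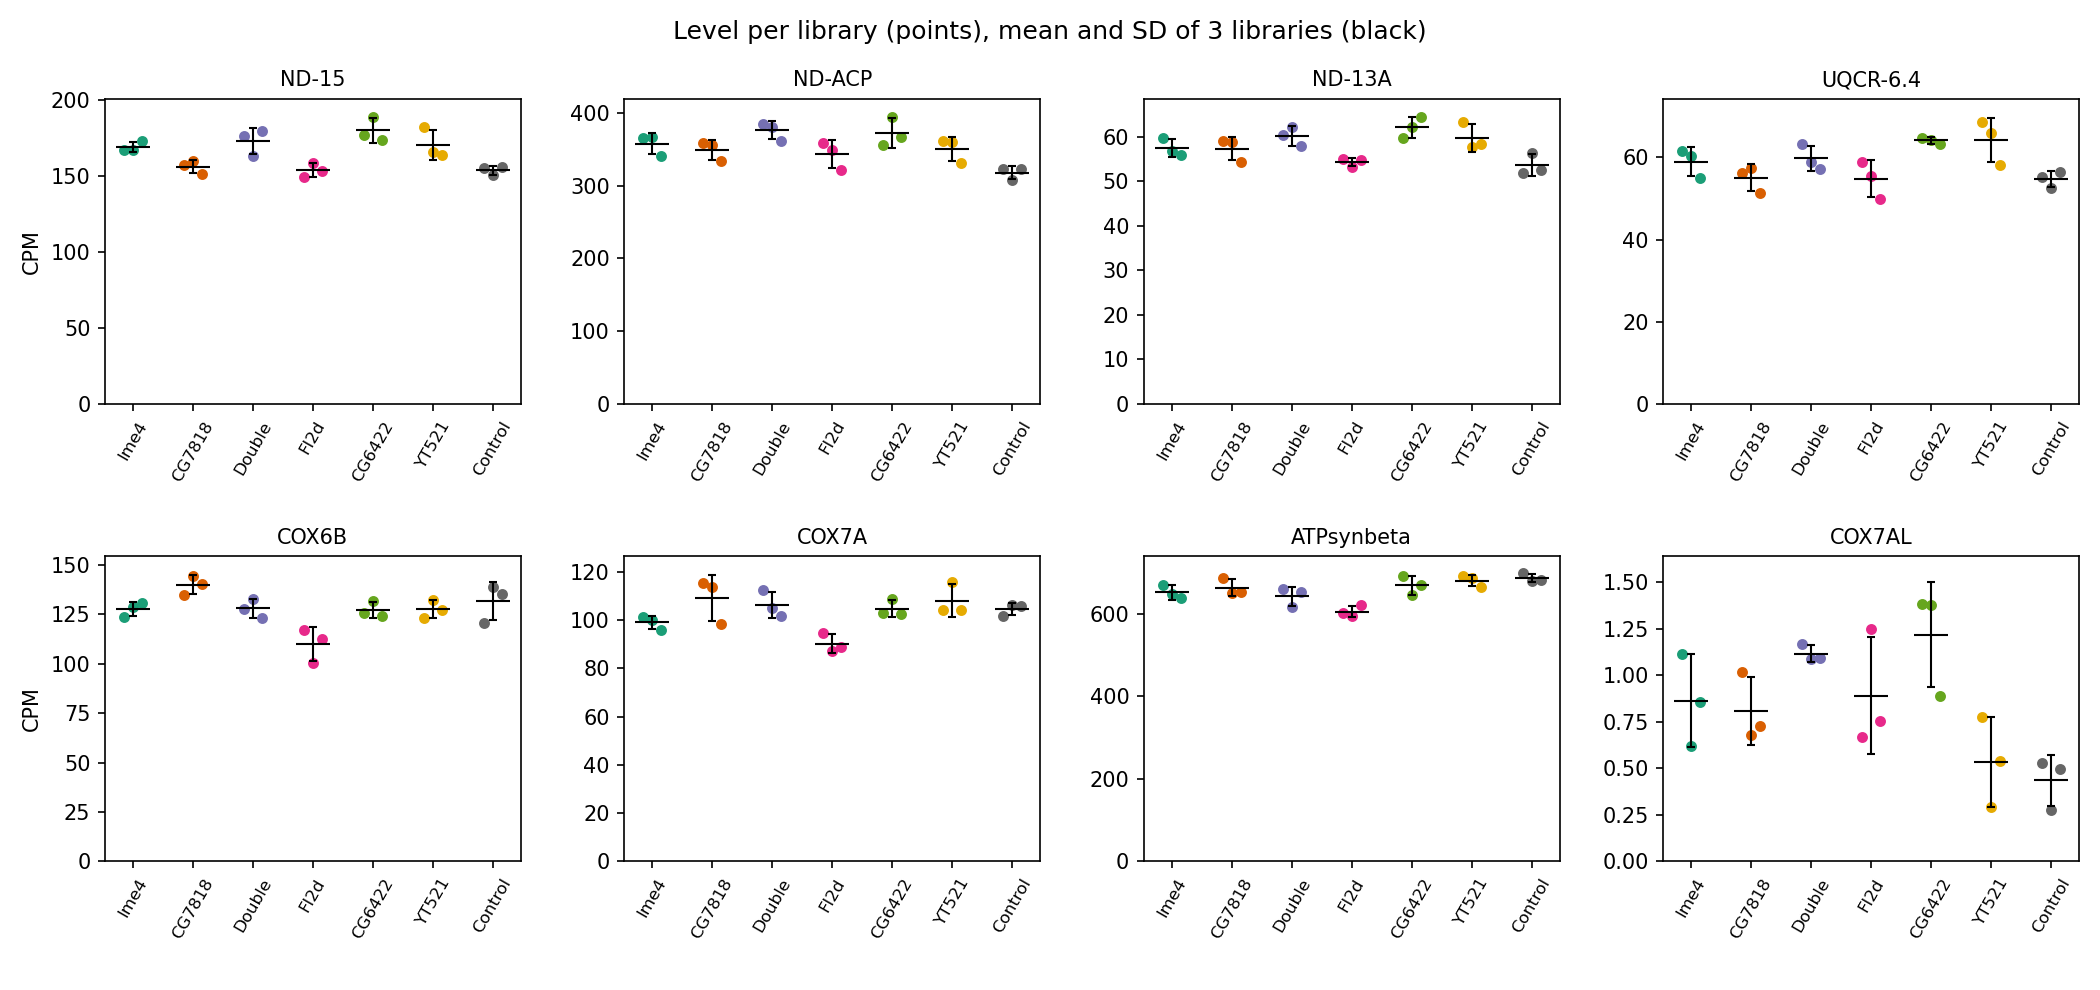
CPM in every library, by group, of 8 members described in the text, with points as libraries and black marks as mean and SD. ND-ACP is highest in the double depletion and the CG6422 depletion, and COX6B and COX7A are lowest in the Fl2d depletion.

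The Fl2d and the double depletion, both of writer proteins, were tested against each other. Of 65 members 3 were higher and 6 lower in the Fl2d depletion, 13.8%, against 36.9% of all genes (18.6% higher and 18.3% lower). COX6B averaged 110.0 ± 8.6 CPM in the Fl2d depletion and 128.1 ± 4.8 CPM in the double depletion (log2 difference −0.22, SE 0.058, adjusted p = 0.0054). COX7A averaged 90.2 ± 3.9 CPM in the Fl2d depletion and 106.3 ± 5.6 CPM in the double depletion (−0.24, SE 0.060, adjusted p = 0.00412). Both differences held under all 13 alternatives, so 2 of the 3 members that fell in the Fl2d depletion also lay below their level in the double depletion. For ATPsynbeta the difference was −0.09 (adjusted p = 0.122), and its 95% interval ran between −0.176 and 0.003. The count of 9 was 5 without any 1 of the double depletion libraries, 14 without Fl2d replicate 1 and 17 without Fl2d replicate 3. Of all genes 28.4% to 30.6%, 27.4% and 37.0% passed in these settings.

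The depletions of the YTH proteins were also compared directly. Of 65 members 0 were higher and 2 lower in the YT521 depletion than in the CG6422 depletion, 3.08%, against 12.9% of all genes (6.67% higher and 6.21% lower). With an unadjusted p under 0.05 there were the same numbers, 0 higher and 2 lower. ND-23 had 94.46, 102.5 and 90.95 CPM in the YT521 depletion, against 106.6, 116.4 and 105.0 CPM in the CG6422 depletion (log2 difference −0.19, SE 0.057, adjusted p = 0.0322). This call was lost without CG6422 replicate 2 (adjusted p = 0.161), YT521 replicate 1 (0.0741) or YT521 replicate 3 (0.157). For UQCR-6.4 the difference was 0.00 (SE 0.067, 95% interval −0.137 to 0.141). The second was the paralog COX7AL. The count of 2 was 0 without CG6422 replicate 2 and 1 without any single YT521 library, against 8.12% and 8.76% to 12.2% of all genes.

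COX7AL (FBgn0037579, chromosome 3R, 8343669 to 8344310, plus strand) lies 2625 bases from COX7A on the opposite strand. It was chosen after its values were seen, since its mean of 0.838 CPM is under the 1 CPM set for naming a gene. Raw counts were 29, 14 and 18 in the Ime4 depletion, 24, 15 and 16 in the CG7818 depletion, 28, 25 and 23 in the double depletion, 14, 26 and 15 in the Fl2d depletion and 29, 36 and 19 in the CG6422 depletion, against 12, 8 and 10 in the Control. The log2 fold changes were 1.40 in the double depletion (SE 0.342, adjusted p = 0.0099), 1.08 in the Fl2d depletion (SE 0.366, adjusted p = 0.0227) and 1.53 in the CG6422 depletion (SE 0.335, adjusted p = 0.00366). In the Ime4 depletion the value was 1.047 (SE 0.358, adjusted p = 0.111) and in the CG7818 depletion 0.94 (SE 0.366, adjusted p = 0.206), neither past the test, though in CPM neither group overlapped the Control. The CG6422 value held under all 13 alternatives. The call in the double depletion was lost without Control replicate 2 (adjusted p = 0.0889), and that in the Fl2d depletion without Fl2d replicate 2 (0.148) or Control replicate 2 (0.126). In the YT521 depletion the counts were 19, 8 and 15 (0.32, adjusted p = 0.687), and the difference from the CG6422 depletion was −1.21 (SE 0.310, adjusted p = 0.0123). It was lost without CG6422 replicate 2 (0.0654) or YT521 replicate 2 (0.0758). Reads may be shared between COX7AL and its paralog COX7A, so these counts are uncertain.

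Some members lie under other genes. The exons of 31 tested members overlap another gene, 12 of them over at least 10% of their bases, and it is not known whether the counting used strand. Among those that passed, all of UQCR-14 lies within CG32576 on the opposite strand, and UQCR-6.4 shares 40.5% of its exon bases with POSH. ND-MWFE shares 35% with Nrk on the same strand and with TppII, and ND-15 15.9% with CG3436 on the same strand and with Pus10. SdhD shares 13.9% with PTPMT1 and ND-13A 12.4% with CG4230. ND-ACP, COX7A, ND-20 and ND-23 overlap no annotated gene. Reads of shared bases cannot be told apart from those of the partner gene in an unstranded count. Where the overlap is on the same strand, this holds in a stranded count too. UQCR-14 still had 129.9 to 182.3 CPM per library, and CG32576 had 305 to 810 counts. How the counting assigned shared bases was not tested.

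Respiratory chain genes that go under other symbols were counted in the same fit. Of 7 tested (RFeSP, Cyt-c1, ox, levy, cype, blw and sun), 2 rose in the CG6422 depletion and 1 in the YT521 depletion, and none passed in the other 4 comparisons with the Control. Of all genes 19.1% passed in the CG6422 depletion, 6.52% in the YT521 depletion and 41.3% in the Fl2d depletion. The epsilon subunit of the ATP synthase, sun, had 123.1, 135.2 and 130.1 CPM in the CG6422-depleted cells, against 83.08, 82.18 and 86.48 CPM in the Control. With a log2 fold change of 0.63 (SE 0.062, adjusted p = 2.67e-06, at most 5.62e-05 over 13 alternatives), it moved further than any member of at least 1 CPM in any comparison with the Control. The complex III subunit ox rose by 0.33 in the YT521 depletion (144.2, 131.0 and 129.4 CPM, against 101.2, 111.1 and 110.1 CPM in the Control, SE 0.054, adjusted p = 0.000731), a call lost with the gene length correction (adjusted p = 0.0826). In the CG6422 depletion ox rose by 0.20 (adjusted p = 0.016), which was lost without CG6422 replicate 2 (0.0952) or Control replicate 1 (0.0881).

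Other mitochondrial lists moved in part. Of 13 protein genes of the mitochondrial genome 2 rose in the Fl2d depletion, mt:ND4L at 30.73, 9.321 and 17.64 CPM, against 8.543, 8.172 and 10.09 CPM in the Control (1.12, adjusted p = 0.00408), and mt:ND6 at 46.89, 10.57 and 15.53 CPM, against 9.074, 8.068 and 9.097 CPM (1.485, adjusted p = 0.00245). Both lost the call without Fl2d replicate 1 (0.0781 and 0.0616), and the list's median was −0.298. None passed in the other 5 comparisons with the Control. Of 10 genes of the tricarboxylic acid cycle 4 fell and 0 rose in the Fl2d depletion, where 41.3% of all genes passed (21.4% higher and 19.9% lower). The 4 included kdn, the citrate synthase, at 177.4, 144.7 and 167.2 CPM, against 199.6, 201.7 and 196.9 CPM in the Control (−0.29, SE 0.061, adjusted p = 0.000707), with Idh3g (−0.27), ScsbetaA (−0.19) and Idh3a (−0.19). Their calls held without each single library, but with the compared groups alone in the fit ScsbetaA (adjusted p = 0.056) and Idh3g (0.0681) lost theirs. The isocitrate dehydrogenase subunit gene Idh3b rose by 0.19 in the CG6422 depletion (adjusted p = 0.0055, at most 0.0385 over its alternatives), by 0.173 in the double depletion (adjusted p = 0.0125) and by 0.175 in the Ime4 depletion (adjusted p = 0.0283), and Ogdh by 0.14 in the double depletion (adjusted p = 0.0488). Of these, Idh3b in the Ime4 depletion and Ogdh lost the call without each single library (adjusted p between 0.0618 and 0.103 for Idh3b and between 0.0758 and 0.188 for Ogdh), and Idh3b in the double depletion without Double replicate 2 (0.0565) or Control replicate 2 (0.0558). Of 70 mitochondrial ribosomal protein genes 18 rose and 0 fell in the Fl2d depletion, 12 rose and 1 fell in the CG6422 depletion, 2 rose in the double depletion and 1 in the YT521 depletion. These counts stand beside 21.4% of all genes higher and 19.9% lower in the Fl2d depletion, 8.88% higher and 10.2% lower in the CG6422 depletion, 6.29% higher in the double depletion and 3.27% higher in the YT521 depletion. They come from the main fit, and whether they hold under the alternatives is not given here. Of 11 transcription and biogenesis factors crc, the ATF4 homologue, rose in all 6 depletions, by 0.25 (CG7818) to 0.65 (double depletion). In the CG7818 depletion its call was lost without CG7818 replicate 1 (adjusted p = 0.158) or 3 (0.105) and without Control replicate 2 (0.113) or 3 (0.113). In the Fl2d depletion srl, the fly homologue of the coactivator PGC-1, rose by 0.315 (SE 0.089, adjusted p = 0.00718) and Ets97D, the counterpart of the GABP alpha factor, by 0.20 (SE 0.045, adjusted p = 0.00135). With crc, PolrMT (0.28) and cnc (0.215), 5 of these factors rose there and 1 fell, ewg (−0.19), where 21.4% of all genes rose and 19.9% fell. The call of cnc was lost without Fl2d replicate 2 (0.228) or Control replicate 2 (0.165), and that of ewg without Fl2d replicate 1 (0.124), Control replicate 1 (0.172) or Control replicate 3 (0.0638).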

How the data were processed

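The authors deposited 1 table of raw counts for each of 21 libraries. The submitters' processing notes name the build BDGP6 and the tools DESeq2 1.6.3, HTSeq 0.6.1, STAR 2.4.0h and CASAVA 1.8.4. The sources used here give neither the strand setting of the counting nor the annotation release. The lines that name no gene (multiple alignments, 11.0% to 18.7% of counted reads; no feature, 1.46% to 1.91%; ambiguous, 0.723% to 0.893%) stayed out of library sizes and tests. Gene models (symbols, positions, merged exon lengths) were those of Ensembl release 115, assembly BDGP6.54, which held 17252 of 17558 gene IDs.

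Genes were filtered with filterByExpr at a minimum count of 10 and scaled with TMM, and edgeR 4.0.16 (R 4.3.3) fitted a quasi-likelihood model with 1 mean per group over all 21 libraries (residual degrees of freedom 14, common biological coefficient of variation 6.37%). Adjusted p-values are Benjamini-Hochberg over 8360 genes, with a threshold of 0.05. CPM use the TMM-scaled library size. Each comparison had 13 alternatives, among them DESeq2 1.42.0, a replicate block, a gene length correction (loess span 0.5), and leaving out each library. The members and lists were chosen with earlier results of these data known. Named genes were up to 8 called members per direction and comparison with a mean of at least 1 CPM, the highest member of each complex, and the smallest p where none was called. No sequence is given. Reads carry no molecular identifiers.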

Additional observations from a re-analysis of the deposited data

Results flagged for a closer look

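A direct test between depletions flagged 11 differences, 9 between the Fl2d and the double depletion and 2 between the YT521 and the CG6422 depletion. Values are log2 differences with edgeR's adjusted p.

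Higher in the Fl2d than in the double depletion were ND-B17 (0.23, adjusted p = 0.0438), ATPsyngamma (0.22, adjusted p = 0.0394) and ND-39 (0.21, adjusted p = 0.0466). ATPsyngamma had 1080, 828 and 816.5 CPM in the Fl2d depletion, against 770.5, 807.3 and 767.6 CPM in the double depletion. ND-39 had 408.4, 334.5 and 330.0 CPM, against 296.2, 324.6 and 309.0 CPM. Fl2d replicate 1 was the highest library of its group in all 3 genes. Without it the adjusted p was 0.424 for ND-B17, 0.482 for ATPsyngamma and 0.396 for ND-39. All 3 also lost the call without Double replicate 1 (0.154, 0.11 and 0.167) or 3 (0.105, 0.104 and 0.0996), and ATPsyngamma without Double replicate 2 (0.0542).

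Lower in the Fl2d than in the double depletion were COX7A (−0.24, adjusted p = 0.00412), COX6B (−0.22, adjusted p = 0.0054), ATPsynCF6 (−0.18, adjusted p = 0.0413), ND-15 (−0.17, adjusted p = 0.00939), ND-SGDH (−0.17, adjusted p = 0.0254) and ND-13A (−0.15, adjusted p = 0.0342). COX7A and COX6B passed under all 13 alternatives. ND-15 lost the call without Double replicate 3 (0.054), and ND-SGDH without Double replicate 2 (0.0814) or Fl2d replicate 2 (0.168). ATPsynCF6 lost it without Fl2d replicate 1 (0.0681) or 2 (0.183) and without Double replicate 2 (0.179) or 3 (0.0767). ND-13A lost it without Fl2d replicate 2 (0.0836) and without Double replicate 1 (0.0604) or 2 (0.127).

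For YT521 minus CG6422 the lower ones were ND-23 (−0.19, adjusted p = 0.0322) and COX7AL (−1.21, adjusted p = 0.0123), with the libraries that decide each call given above.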

How the results depend on the processing

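Of 34 calls of a member in a comparison, 9 held under all 13 alternatives. For the 22 members called in at least 1 of 8 comparisons, over 2288 alternative values 2128 kept direction and side of the threshold, 114 lost a call, 46 gained one and 0 reversed. Over all 65 tested members 126 alternative values gained a call. In the Ime4 depletion DESeq2, the replicate block, a fit of the compared groups alone, leaving out both libraries low in mt:lrRNA and the gene length correction each gave 1 call, ND-ACP, against 4.61% to 7.39% of all genes. Without the filter on low counts, which leaves 79 members tested, the counts were 2 in the double depletion, 13 in the Fl2d depletion, 6 in the YT521 depletion, 1 for YT521 minus CG6422 and 23 for any difference among the 7 groups. Of the 13955 genes then tested 6.92%, 23.9%, 4.96%, 7.39% and 33.9% passed. With the compared groups alone they were 3 in the Fl2d depletion, 2 in the YT521 depletion, 2 for Fl2d minus Double and 1 for YT521 minus CG6422. Of all genes 26.6%, 6.58%, 23.3% and 8.24% passed there. The 2 calls in the YT521 depletion were ND-20 and UQCR-14, and UQCR-6.4 was not among them. Without both libraries low in mt:lrRNA the counts were 18 in the CG6422 depletion, 2 in the YT521 depletion, 15 for Fl2d minus Double and 27 among the 7 groups. Of all genes 24.5%, 7.12%, 28.8% and 53.5% passed there. The 2 calls in the YT521 depletion were then ND-MLRQ and UQCR-11. With the gene length correction the counts were 2 in the double depletion, 3 in the CG6422 depletion and 0 in the YT521 depletion, against 11.8%, 14.1% and 6.15% of all genes. In the YT521 depletion DESeq2 gave 2, against 7.61% of all genes. The cause was not tested. Leaving out each library in turn gave 0 to 0 calls in the Ime4 and the CG7818 depletion, 2 to 3 in the double depletion, 6 to 20 in the Fl2d depletion, 4 to 11 in the CG6422 depletion, 0 to 1 in the YT521 depletion, 5 to 17 for Fl2d minus Double, 0 to 2 for YT521 minus CG6422 and 10 to 25 among the 7 groups. Of all genes 1.7% to 2.36% passed for Ime4, 1.14% to 1.46% for CG7818 and 5.51% to 9.0% for the double depletion. It was 33.4% to 41.3% for Fl2d, 10.3% to 17.1% for CG6422 and 2.97% to 5.92% for YT521. For Fl2d minus Double it was 27.4% to 38.4%, for YT521 minus CG6422 8.12% to 12.2%, and among the 7 groups 50.5% to 54.8%.

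Whether libraries of the same replicate number belong together is not known. Their deviations correlated between −0.235 and 0.278 over 63 pairs (median 0.0681), 22 of them over 0.1. Of 18 depletion libraries, 5 correlated best with the Control library of their own number. With the replicate block the counts of members called were 1 in the Ime4 depletion, 0 in the CG7818 depletion, 4 in the double depletion and 9 in the Fl2d depletion. Of all genes 4.95%, 2.79%, 13.1% and 42.8% passed there. The member counts were 11 in the CG6422 depletion, 5 in the YT521 depletion, 11 for Fl2d minus Double, 2 for YT521 minus CG6422 and 19 among the 7 groups. Beside these stood 21.4%, 8.83%, 38.8%, 14.4% and 57.5% of all genes. Over all genes the block raised the calls in every comparison. They went from 311 to 414 in the Ime4 depletion and from 4585 to 4808 among the 7 groups.

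Depth limits the paralogs under 1 CPM, which rest on at most 36 counts in a library.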
